A study of Mus musculus with 6 samples.

Results

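Heart development is steered by a small set of DNA-binding proteins, and 10 genes that encode such factors were followed here in the cardiac side population (SP): *Gata4*, *Gata6*, *Tbx5*, *Tbx18*, *Tbx20*, *Hand2*, *Nkx2-5*, *Tcf21*, *Wt1* and *Isl1*. They were chosen by name as cardiac and epicardial transcription factors, and they are 10 of the 50600 genes in the deposited table. The SP is the fraction of cardiac cells that pumps out the Hoechst dye, and it is enriched for cells with progenitor properties in culture. SP cells were sorted on 3 dates from the hearts of mice 8 to 12 weeks old, after cardiomyocytes and erythrocytes had been depleted. On each date 1 library was made from wt mice (C57BL/6NRj) and 1 from flt3L-/- mice (C57BL/6Flt3Ltml/mx), bred to lack the cytokine Flt3 ligand. Thus 3 libraries per genotype were available, and a library of each genotype shared every date. Dates 1 and 2 were 22 and 24 August 2016, and date 3 was 29 August 2017. Each library pooled the cells of 4 mice. The methods describe sorts of the complete SP and of its Sca1+/CD31- fraction, and the labels name only the SP, so which gate gave these libraries is not stated.

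GATA4 and GATA6 are zinc finger proteins that activate cardiac muscle genes and act together with NKX2-5, a homeodomain protein, and TBX5, a T-box protein. TBX20 is a T-box factor of the myocardium and endocardium, TBX18 marks the epicardium and the sinus node, and HAND2 is a basic helix-loop-helix factor needed for the right ventricle. ISL1 marks progenitors of the second heart field. WT1 and TCF21 are used as markers of the epicardium, the mesothelial layer that covers the heart. TCF21 is also kept on in the cardiac fibroblasts that descend from the epicardium, and WT1 has been described in endothelial cells as well. In the adult heart GATA4, TBX20 and HAND2 are likewise found in fibroblasts.

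The libraries held 24370913 to 31145519 assigned reads. Levels are given in CPM, the reads of a gene scaled to the protein-coding total of its library, after normalization by the trimmed mean of M-values (TMM). The targeted gene itself, *Flt3l*, was read at 8.67, 10.8 and 12.1 CPM on dates 1, 2 and 3 in wt and at 13.6, 12.4 and 14.4 CPM in the other group, which is called flt3L-/- below by its label, since these reads were not lower there and do not check it. The summed level of 14 fibroblast markers ranged from 10857 to 47953 CPM and that of 10 endothelial markers from 7374 to 9638 CPM. The 20 markers of cardiomyocytes, which had been depleted before the sort, summed to 336 to 713 CPM, and 10 leukocyte markers to 129 to 1097 CPM. In bulk libraries such as these, fewer cells of a type and less RNA per cell cannot be told apart.

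The stretches around the start of 4 of the genes are shown first, because several of these factor families bind short words that can be searched. *Tcf21* and *Hand2* are shown as a pair whose levels varied together, and *Tbx20* and *Tbx18* as the factors with the lowest fitted values below. Each line reads 5′ to 3′ on the strand of the gene and ends at the RefSeq start in GRCm38.p6, except that of *Tcf21*, which stops 25 bases before it. GENCODE places the first exon of *Tcf21* 31 bases further upstream than RefSeq, and the last 6 bases printed, the capitals, are the first 6 of that exon. The windows lie at chr10:22820169-22820393 (minus strand), chr8:57320733-57320982 (plus strand), chr9:24774304-24774553 (minus strand) and chr9:87731261-87731510 (minus strand), in the order *Tcf21*, *Hand2*, *Tbx20*, *Tbx18*. Capitals mark the letters AGATAA, to which GATA factors bind, on either strand.
Tcf21: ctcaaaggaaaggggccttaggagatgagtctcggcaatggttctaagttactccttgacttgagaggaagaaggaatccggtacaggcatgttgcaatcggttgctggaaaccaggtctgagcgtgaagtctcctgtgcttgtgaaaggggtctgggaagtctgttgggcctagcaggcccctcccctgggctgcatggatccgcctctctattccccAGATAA
Hand2: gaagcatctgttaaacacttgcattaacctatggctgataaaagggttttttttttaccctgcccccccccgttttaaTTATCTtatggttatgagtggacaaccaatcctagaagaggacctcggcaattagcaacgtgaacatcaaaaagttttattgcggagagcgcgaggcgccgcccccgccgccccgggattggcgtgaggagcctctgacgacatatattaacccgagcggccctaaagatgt
Tbx20: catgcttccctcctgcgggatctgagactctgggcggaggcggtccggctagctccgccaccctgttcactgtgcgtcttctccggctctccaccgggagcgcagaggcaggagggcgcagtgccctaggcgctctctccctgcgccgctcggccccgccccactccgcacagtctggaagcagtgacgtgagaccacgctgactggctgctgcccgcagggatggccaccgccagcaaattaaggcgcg
Tbx18: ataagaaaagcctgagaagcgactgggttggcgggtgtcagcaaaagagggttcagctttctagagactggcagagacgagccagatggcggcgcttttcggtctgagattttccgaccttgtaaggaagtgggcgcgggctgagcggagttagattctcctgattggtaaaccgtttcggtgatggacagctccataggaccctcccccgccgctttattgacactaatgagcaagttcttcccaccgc
In the 250 bases before the RefSeq start, AGATAA was found on the printed strand of *Tcf21*, 31 to 26 bases before that start and within the GENCODE exon, and on the other strand of *Hand2*, 172 to 167 bases before it. The same word is present in 9.988% of 32851 mouse promoters of this length. The T-box site AGGTGT, present in 11.83% of all promoters, and the NK2 site TNAAGTG, present in 10.06%, had no match in the 4 windows on either strand. The E-box CANNTG, which basic helix-loop-helix factors bind and which 66.22% of promoters hold, matched at 2 places in the *Hand2* window and at 1 in that of *Tbx18*, and is not in capitals. The *Tbx20* window had the highest GC content of the 4, 68.8%, against a median of 52.4% over all promoters. A match of letters is a description of the sequence, and binding was not measured.

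Messenger RNA of 8 of the 10 factors was present above 1 CPM in at least 2 libraries, the filter used for testing, whereas that of *Nkx2-5* and *Isl1* was not. Per kilobase (kb) of exon, the scale on which genes can be compared, *Gata4* was the most abundant, with a mean of 15.3 CPM per kb over the 6 libraries, followed by *Tcf21* with 13.3. *Tbx20* (5.90), *Wt1* (4.02) and *Gata6* (3.59) formed a middle range, and *Tbx18* (1.21), *Hand2* (0.863) and *Tbx5* (0.857) were lower. *Gata4* stood at percentile 83.7 and *Tbx5* at percentile 41.0 of the protein-coding genes with a read.

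The order of these levels was only partly resolved. Neighbours were set by the means of these same 6 libraries, so the p-values below describe the order and are no independent test of it. When each factor was compared with the next one down in every library (exact sign-flip test, two-sided, 9 comparisons), *Tcf21* was above *Tbx20*, *Gata6* above *Tbx18* and *Nkx2-5* above *Isl1* in 6 of 6 libraries, each with p = 0.03125, the smallest that 6 libraries can give, and an adjusted p of 0.09375. The other 6 neighbours changed places in at least 1 library, and their p-values by the same exact test ranged from 0.0625 to 0.969. *Tbx5* was above *Hand2* in 4 of 6 libraries, although its mean was slightly lower.

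**Figure D1:**
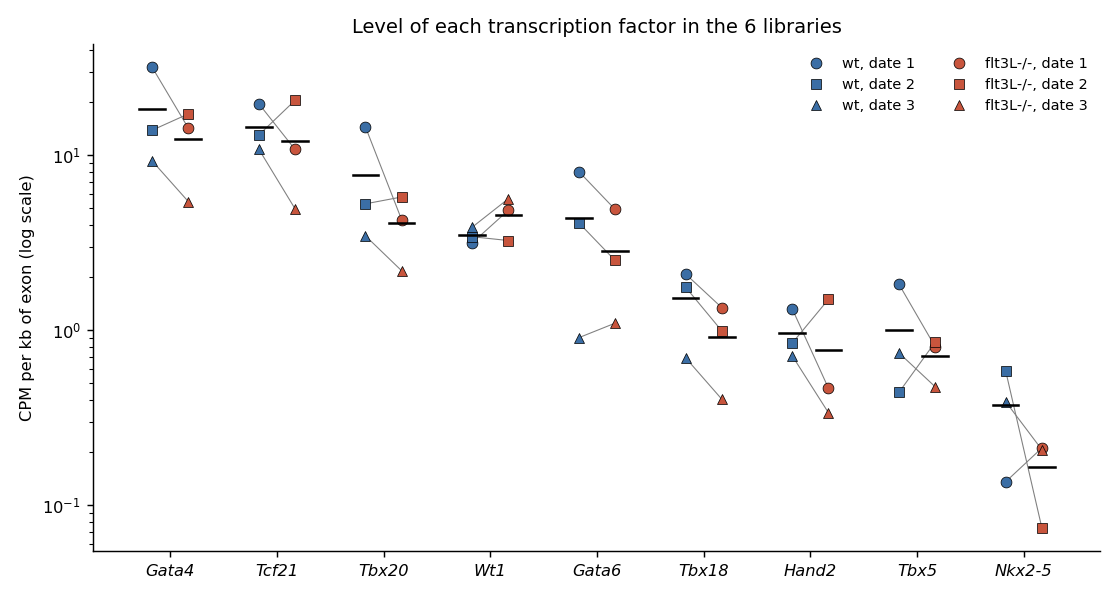
Level of 9 of the 10 transcription factors in CPM per kb of exon (log scale), ordered by mean. Blue symbols are wt and red symbols are libraries labelled flt3L-/-, circles, squares and triangles are dates 1, 2 and 3, grey lines join the libraries of a date and black bars are group means (n = 3). *Isl1*, with 0 to 3 reads per library, is left out. The 2 groups overlap for each factor drawn, and *Wt1* has the narrowest range.

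*Nkx2-5*, an early marker of the cardiac muscle lineage, was represented by 6, 26 and 18 reads in the wt libraries and by 10, 3 and 9 reads in the libraries labelled flt3L-/-. This was 0.233, 1.01 and 0.670 CPM against 0.364, 0.127 and 0.356 CPM, and the groups overlap. *Isl1* had 1, 2 and 0 reads in wt and 2, 3 and 1 reads in flt3L-/-, at or below 3 reads in all 6, which corresponds to 0.109 to 0.127 CPM and was taken as the limit of detection. A difference in *Isl1* was thus not detectable at this depth. The genes lie at chr17:26838664-26845009 and chr13:116298281-116309689 in GRCm38.

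Next, the libraries labelled flt3L-/- were compared with the wt libraries. None of the 8 factors tested was called different (edgeR quasi-likelihood test with date as a covariate, smallest adjusted p = 0.973), and the same test called 0% of the 13475 protein-coding genes tested. The paper, with an earlier edgeR version, listed some genes from these libraries at an adjusted p under 0.05, none of them among these factors. It also reported gene sets of cardiac development as lower in flt3L-/-. Why the genes called differ was not tested, and no set test was run here. Fitted values were below 0 for 7 of the 8 factors, against 50% of all genes tested, and the median log2 fold change of the 8 was −0.50 against −0.00027 for all genes tested. At an unadjusted p under 0.05, 1 factor (*Tbx18*) was lower and none higher, beside 2.49% of genes lower and 1.11% higher. A DESeq2 Wald test, which called 21 genes, called none of the factors.

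The differences were not alike on the 3 dates. Median differences of the 8 factors between flt3L-/- and wt were −1.01 on date 1, 0.22 on date 2 and −0.71 on date 3, on the log2 scale. *Tbx18* was lower in flt3L-/- on all 3 dates, which 11.5% of genes tested were, and no factor was higher on all 3. None of the 8 had groups that did not overlap, a pattern shown by 6.45% of genes tested (2.92% lower and 3.53% higher in flt3L-/-).

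**Figure D2:**
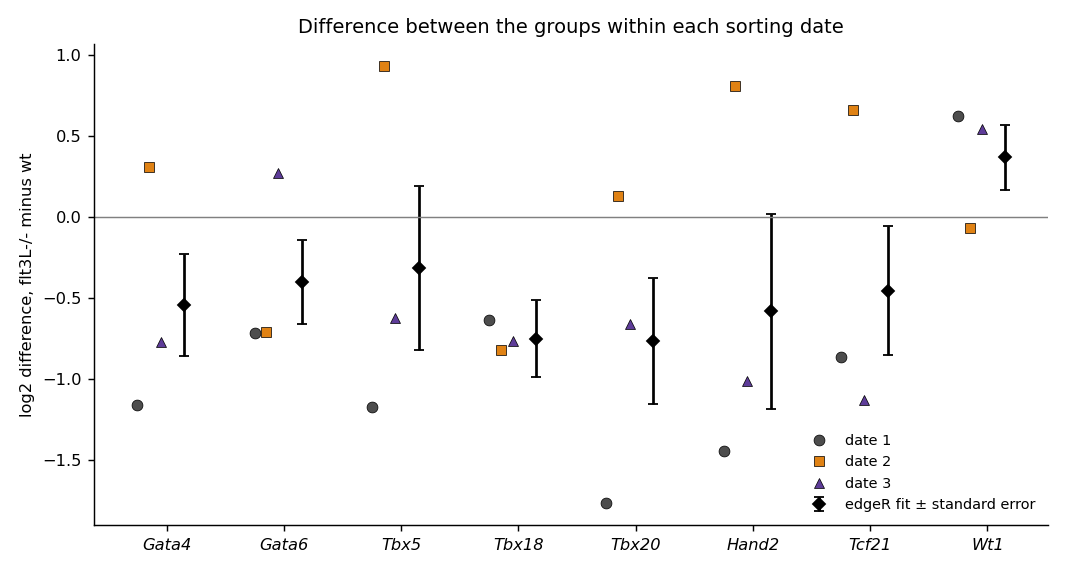
Log2 difference in CPM between the library labelled flt3L-/- and the wt library of the same date (circle, square and triangle for dates 1, 2 and 3), with the edgeR estimate over the 3 dates and its standard error (black diamond and bar). For *Gata4*, *Tbx5*, *Tbx20*, *Hand2* and *Tcf21* date 2 lies above 0 and the other dates below, *Tbx18* is the one factor with all 3 dates below 0, and *Wt1* mirrors the first pattern.

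Of the GATA factors, *Gata4* (chr14:63198922-63271692, ENSMUSG00000021944) had 124, 54.1 and 36.2 CPM in wt and 55.7, 67.0 and 21.2 CPM in flt3L-/- on dates 1, 2 and 3. The wt library of date 1 was the highest and the flt3L-/- library of date 3 the lowest. Its log2 fold change was −0.55 ± 0.32 (SE, n = 3 per group, edgeR unadjusted p = 0.147, adjusted p = 0.973). *Gata6* (chr18:11052064-11085635, ENSMUSG00000005836) had 52.4, 26.7 and 5.88 CPM in wt and 31.8, 16.3 and 7.12 CPM in flt3L-/-, with a log2 fold change of −0.40 ± 0.26 (SE, n = 3 per group, edgeR unadjusted p = 0.181, adjusted p = 0.973). Both groups descended from date 1 to date 3, and the difference between them changed sign on date 3. Of the 8 tested factors, *Gata6* spread most over the 6 libraries, with a highest value 8.91 times the lowest. A divergent noncoding gene, *1010001N08Rik*, shares 1.43% of its exon bases and had 49 to 106 reads.

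Among the tested T-box genes the highest library was 4.16 to 6.65 times the lowest. *Tbx20* (chr9:24718138-24774303, ENSMUSG00000031965) reached 174, 63.1 and 41.5 CPM in wt and 51.1, 69.1 and 26.2 CPM in flt3L-/-. The wt library of date 1 was the highest, and without that date the log2 fold change moved from −0.76 ± 0.39 (SE, n = 3 per group, edgeR unadjusted p = 0.108, adjusted p = 0.973) to −0.27. *Tbx18* (chr9:87702800-87731260, ENSMUSG00000032419) had 9.87, 8.30 and 3.28 CPM in wt and 6.34, 4.67 and 1.90 CPM in flt3L-/-.

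For *Tbx18* the 3 within-date differences were alike, −0.63, −0.82 and −0.76, and the log2 fold change was −0.75 ± 0.24 (SE, n = 3 per group, edgeR unadjusted p = 0.0266, adjusted p = 0.973). By p-value it ranked 189 of 13475 genes, and without the date covariate its edgeR p was 0.232. The wt library of date 3 lay below the flt3L-/- libraries of dates 1 and 2, so the groups overlap across dates. An uncharacterised transcript on the opposite strand, *D030062O11Rik*, covers 20.6% of its exon bases, and the libraries were unstranded, so reads from there cannot be assigned to one or the other. *Tbx5* (chr5:119832668-119885219, ENSMUSG00000018263) had 8.55, 2.06 and 3.46 CPM in wt and 3.75, 3.99 and 2.22 CPM in flt3L-/-, a log2 fold change of −0.32 ± 0.51 (SE, n = 3 per group, edgeR unadjusted p = 0.561, adjusted p = 0.977) that turned to 0.15 without date 1.

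The basic helix-loop-helix factors varied in parallel across the libraries. *Tcf21* (chr10:22817281-22820174, ENSMUSG00000045680) had 46.2, 30.5 and 25.4 CPM in wt and 25.3, 48.2 and 11.6 CPM in flt3L-/-. Its highest value was in flt3L-/- on date 2 and its lowest in flt3L-/- on date 3, and the log2 fold change was −0.46 ± 0.40 (SE, n = 3 per group, edgeR unadjusted p = 0.304, adjusted p = 0.973). *Hand2* (chr8:57320983-57324633, ENSMUSG00000038193) had 3.11, 1.98 and 1.68 CPM in wt and 1.09, 3.52 and 0.792 CPM in flt3L-/-, with a log2 fold change of −0.58 ± 0.60 (SE, n = 3 per group, edgeR unadjusted p = 0.380, adjusted p = 0.973). Its largest and smallest values fell in the same libraries as those of *Tcf21*.

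*Hand2os1*, a long noncoding RNA on the opposite strand of *Hand2* (chr8:57281117-57324233), had far more reads than *Hand2* itself. It had 40.2, 16.1 and 12.8 CPM in wt and 12.5, 20.8 and 11.3 CPM in flt3L-/-. The 2 genes share 19.6% of the exon bases of *Hand2*, and without strand the reads there belong to either. Differences on the 3 dates were −1.67, 0.37 and −0.18 for *Hand2os1* and −1.45, 0.81 and −1.01 for *Hand2*, on the log2 scale.

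*Wt1* (chr2:105126529-105173616, ENSMUSG00000016458) was the one tested factor with a fitted value above 0. It had 19.5, 21.1 and 23.9 CPM in wt and 30.0, 20.1 and 34.9 CPM in flt3L-/-, and was higher in flt3L-/- on dates 1 and 3 but not on date 2. The log2 fold change was 0.37 ± 0.20 (SE, n = 3 per group, edgeR unadjusted p = 0.128, adjusted p = 0.973). *Wt1* was also the steadiest factor. Its coefficient of variation in the wt libraries was 10.5%, whereas it was 82.3% for *Gata6* and 76.5% for *Tbx20*. The wt spread of *Gata6* was exceeded by 3.01% of genes tested and that of *Tbx20* by 4.15%.

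Sorting date was then tested in the same model, which had not been planned and was added once the levels were known. *Gata6* (edgeR unadjusted p = 0.00171), *Tbx18* (edgeR unadjusted p = 0.00735) and *Gata4* (edgeR unadjusted p = 0.0246) had the smallest p-values of the 8 factors, and 8.28% of genes tested had an unadjusted p under 0.05. No factor and 0% of genes passed after adjustment, where the 3 factors had an adjusted p of 0.598. *Gata6* and *Tbx18* were highest on date 1 and lowest on date 3 in both groups. The dates are days of sorting, and what else differed between them is not stated.

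To describe how alike the profiles were, log2 CPM values were correlated over the 6 libraries for the 28 pairs of tested factors. *Gata4* and *Tbx20* had a Pearson r of 0.97 and a Spearman rho of 0.943 (exact permutation, adjusted p = 0.0292 and 0.0933). Their r was 0.906 when the 2 libraries farthest from the median of *Gata4* were left out. *Hand2* and *Tcf21* had r = 0.95 and rho = 1 (exact permutation, adjusted p = 0.0292 and 0.0778), with r = 0.909 without the 2 libraries farthest for *Hand2*. Both pairs moved in the same direction between the genotypes on all 3 dates, as did every pair among *Gata4*, *Tbx5*, *Tbx20*, *Hand2* and *Tcf21*. *Tbx5* and *Hand2*, with r = 0.59, were among these.

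The profile of *Wt1* was opposite to those of *Hand2* and *Tcf21*. Its r was −0.96 with *Hand2* and −0.92 with *Tcf21* (exact permutation, adjusted p = 0.0292 for each). These were −0.963 and −0.795 without the 2 libraries farthest from the median of *Hand2* or *Tcf21*, not of *Wt1*. The Spearman rho was −0.943 for both (exact permutation, adjusted p = 0.0933), and no pair passed 0.05 after adjustment by rank. With *Tbx20*, *Gata4*, *Tbx18*, *Tbx5* and *Gata6* the r of *Wt1* was −0.80, −0.79, −0.69, −0.50 and −0.46 (exact permutation, adjusted p = 0.1005 to 0.344). With *Tbx18* and *Gata6* it was 0.032 and 0.040 without the 2 libraries farthest from the median of *Tbx18* or *Gata6*. *Gata6* was closest to *Tbx18* (r = 0.92, exact permutation, adjusted p = 0.0700) and had its lowest positive r with *Hand2* (r = 0.44). The 6 libraries share dates and each value is a part of its library's total, so they are not fully independent.

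**Figure D3:**
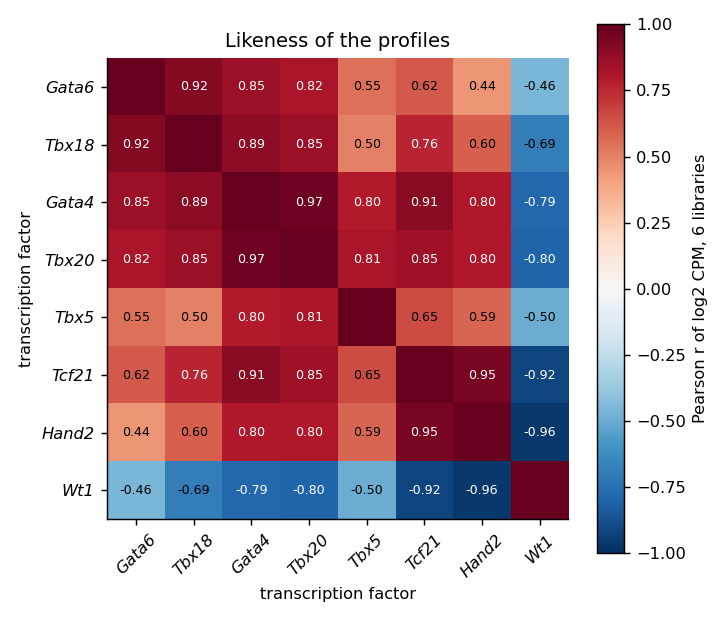
Pearson r of log2 CPM over the 6 libraries for each pair of the 8 tested factors, from blue (−1) to red (1). *Gata4* with *Tbx20* (0.97) and *Hand2* with *Tcf21* (0.95) are the closest pairs, and the row of *Wt1* is negative throughout.

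Among all 13475 genes tested, those whose profile was most like each factor were named by the highest r over the 6 libraries, as a description. For *Tcf21* they were *Gli1*, a mediator of hedgehog signalling, *Loxl4*, a collagen cross-linking enzyme, and *Pdpn*, which encodes podoplanin. For *Tbx20* they were *Twsg1* (r = 0.999), *Fam110b* and *Ndrg4*, and for *Gata4* they were *Olfml2a*, *Grin3a* and *Irs1*. *Tbx18* was closest to *Gria1* (r = 0.999), *Dvl3* and *Adamts2*, and *Gata6* to *Sh3rf3*, *Ppp3ca* and *Daam2*. *Hand2* was closest to *Igsf8*, *Fuca1* and *1700019D03Rik*, *Tbx5* to *Mcm4*, *Glg1* and *Csrnp2*, and *Wt1* to *Eef1e1*, *Rab11a* and *Pkn3*. With 6 libraries such values are common, and 107 (*Tbx5*) to 607 (*Gata4*) genes had an r above 0.9 with a factor.

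Markers of other cell types moved with several of these factors. The 14 fibroblast markers, among them *Dcn*, *Gsn* and *Col3a1*, summed to 47953, 31316 and 23653 CPM in wt and to 23356, 35084 and 10857 CPM in flt3L-/-. The differences of the sum within dates were −1.04, 0.16 and −1.12 on the log2 scale. The sum was lower on dates 1 and 3 and not on date 2, as *Tcf21* and *Hand2* were. Most of it was *Gsn* and *Dcn*, with 26342 and 10551 CPM in wt on date 1. Of the 14 markers, 6 were lower on all 3 dates, beside 11.5% of genes tested. *Col3a1* was among them, with −0.61 on date 2. All 14 were tested, the fitted value was below 0 for each and none was called. An unadjusted edgeR p under 0.05 was found for 4, beside 2.49% of genes tested that were lower at this threshold. All 14 had reads in every library. The 11 pericyte and smooth muscle markers, which summed to 928, 468 and 515 CPM in wt and 592, 527 and 298 CPM in flt3L-/-, showed the same signs by date, −0.65, 0.17 and −0.79, and 9 of the 11 fitted values were below 0. The 10 leukocyte markers summed to 165, 475 and 1097 CPM in wt and 246, 558 and 129 CPM in flt3L-/-, differences of 0.57, 0.23 and −3.09, so that the libraries of date 3 differed most.

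Set against the fibroblast sum, which was mostly *Gsn* and *Dcn*, the spread of most factors narrowed. Per 1000 CPM of fibroblast markers, *Tcf21* had 0.964, 0.975 and 1.08 CPM in wt and 1.08, 1.37 and 1.07 CPM in flt3L-/-. The highest of the 6 was 1.43 times the lowest, where it had been 4.16 times before. Of the genes tested, 0.371% were tighter against the fibroblast sum, and the median gene spread 4.87 times. The ratio of highest to lowest was 1.69 for *Gata4*, 2.04 for *Tbx18*, 2.07 for *Tbx20*, 2.15 for *Hand2* and 3.11 for *Tbx5*, beside a median of 1.93 for the fibroblast markers themselves. It was 5.48 for *Gata6* and 7.91 for *Wt1*.

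On this scale, added once the levels were known, the log2 ratio of flt3L-/- to wt was averaged over the 3 dates. The mean was 0.12 for *Gata4* (SD 0.24), 0.28 for *Gata6* (SD 1.14) and 0.37 for *Tbx5* (SD 0.48). It was 0.079 for *Hand2* (SD 0.57) and 0.22 for *Tcf21* (SD 0.26). The sign of these 5 differed from that of the edgeR fit, but each mean was smaller than its SD. It was −0.10 for *Tbx20* and −0.087 for *Tbx18*. For *Tbx18* the ratios of the 3 dates were 0.40, −0.99 and 0.34, and were no longer alike. The part of fibroblasts, pericytes or leukocytes in the differences was not tested.

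The sum of the endothelial markers had the signs of *Wt1* by date, but not every marker did. *Kdr*, *Cdh5* and *Vwf* were lower in flt3L-/- on date 3, by −0.14, −0.36 and −1.20 on the log2 scale. *Emcn* was not lower on date 2 (0.012), and the other markers had the signs of *Wt1*. The 10 endothelial markers, among them *Kdr* and *Pecam1*, summed to 7447, 9140 and 8811 CPM in wt and to 9638, 7374 and 9617 CPM in flt3L-/-, higher in flt3L-/- on dates 1 and 3 and lower on date 2. Against this sum, which itself varied little, the highest *Wt1* value was 1.57 times the lowest, where it had been 1.79 times before, and 30.6% of genes tested were tighter, around a median of 1.83. The log2 ratios of flt3L-/- to wt were 0.25, 0.24 and 0.42 on the 3 dates. For the other 7 factors the spread against the endothelial sum was 5.10 to 10.5 times.

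**Figure D4:**
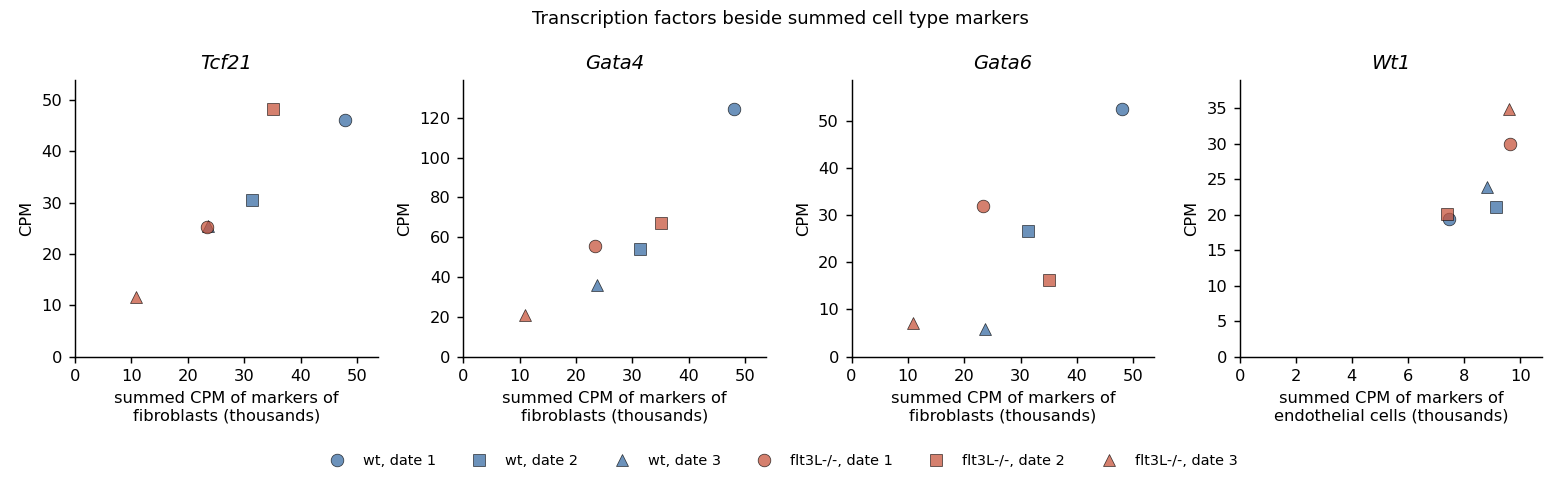
CPM of *Tcf21*, *Gata4* and *Gata6* against the summed CPM of 14 fibroblast markers, and CPM of *Wt1* against the summed CPM of 10 endothelial markers, 1 point per library (blue wt, red flt3L-/-, circle, square and triangle for dates 1, 2 and 3). *Tcf21* and *Gata4* lie near a line through the origin, with ratios that spread 1.43 and 1.69 times, while the ratio for *Gata6* spreads 5.48 times.

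Epicardial markers other than *Aldh1a1* had mean levels from 0.549 CPM (*Muc16*) to 18.6 CPM (*Sema3d*). Per kb of exon, *Gpm6a* had 4.42 CPM and *Sema3d* 2.17, beside 4.02 for *Wt1* and 1.21 for *Tbx18*. *Upk3b*, a uroplakin of the mesothelium, had 0.894, 11.6 and 12.8 CPM in wt and 3.10, 13.0 and 8.27 CPM in flt3L-/-, lowest in both groups on date 1. In wt this is the same order of dates as for *Wt1*, and in flt3L-/- it is not. *Msln*, which encodes mesothelin, had 0.467, 10.3 and 14.5 CPM in wt and 2.08, 12.8 and 5.78 CPM in flt3L-/-. *Krt8* and *Muc16*, at most 2.53 and 1.38 CPM in any library, were at 0 in the wt library of date 1. Other markers of the list were read in that library, among them *Sema3d* with 17.5 CPM and *Gpm6a* with 10.3 CPM. There *Wt1* had 19.5 CPM, *Tcf21* 46.2 CPM and *Tbx18* 9.87 CPM, and which cells held these factors was not tested. The sum of the 14 epicardial and mesothelial markers was 202 to 318 CPM in wt and 111 to 272 CPM in flt3L-/-, and most of it was *Aldh1a1*, an enzyme of retinoic acid synthesis that other cells also express. None of the 13 that could be tested had an unadjusted edgeR p under 0.05.

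All 20 cardiac muscle markers had reads in every library. *Tnnt2*, cardiac troponin T, was at 40.9 to 71.9 CPM, and *Myh6*, the adult myosin heavy chain of the mouse heart, at 13.8 to 32.1 CPM. Per kb of exon, *Tnni3* had 14.1 CPM, *Tnnt2* 6.53 and *Myh6* 2.82, beside 15.3 for *Gata4*. The sum of 20 cardiomyocyte markers was 454, 537 and 336 CPM in wt and 713, 427 and 371 CPM in flt3L-/-. *Atp2a2*, the calcium pump SERCA2, which other cells also express, was the most abundant, with 264, 237 and 62.1 CPM in wt and 379, 81.01 and 64.6 CPM in flt3L-/-. Without it the other 19 summed to 190, 300.3 and 274 CPM in wt and 334, 346 and 307 CPM in flt3L-/-, higher on all 3 dates. Of the list, 9 of the 17 tested were higher in flt3L-/- on all 3 dates, beside 14.2% of genes. *Gata4* and *Tbx20* were highest in the wt library of date 1, where this sum was not.

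Related regulators were examined as lists. Of 43 other cardiac transcription factors, 31 were tested and none was called, with a median log2 fold change of −0.11. *Tbx3*, a T-box repressor of the conduction system, had 27.7 CPM per kb, above all 10 factors, while *Gata5*, the third cardiac GATA gene, had 0.237 to 1.98 CPM, *Hand1* 0 to 5 reads and *Mesp1* none. *Irx3*, an Iroquois homeobox gene, had 5.99, 10.6 and 4.80 CPM in wt and 20.1, 13.2 and 21.5 CPM in flt3L-/-, higher on all 3 dates with no overlap, and its log2 fold change was 1.41 ± 0.42 (SE, n = 3 per group, edgeR unadjusted p = 0.0206, adjusted p = 0.973). *Hey1*, a Notch target and among the most abundant of the list with *Mef2a*, had a log2 fold change of 0.38 (edgeR unadjusted p = 0.0483).

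Of 23 epicardial and mesenchymal factors, 22 were tested, none was called, and the median log2 fold change was −0.12. On all 3 dates 4 were lower and none higher, beside 11.5% and 14.2% of genes tested. *Zeb2*, a zinc finger factor of epithelial-mesenchymal transition, had 81.2, 51.6 and 49.5 CPM in wt and 38.5, 35.7 and 16.6 CPM in flt3L-/-. Its groups did not overlap, and the log2 fold change was −1.06 ± 0.24 (SE, n = 3 per group, edgeR unadjusted p = 0.00710, adjusted p = 0.973). *Twist1*, another factor of that transition, had 5.25, 5.47 and 2.05 CPM in wt and 2.003, 2.04 and 1.39 CPM in flt3L-/-, and a log2 fold change of −1.13 (edgeR unadjusted p = 0.0235). *Tcf4* and *Klf4*, the most abundant of the list, had fitted values of 0.13 and 0.034.

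Of 14 endothelial factors, 13 were tested and none was called, and the median log2 fold change was 0.13. On all 3 dates 5 were higher and 1 lower, beside 14.2% and 11.5% of genes tested. *Sox18*, a factor of vascular and lymphatic endothelium, had the smallest p-value, with a log2 fold change of 0.49 (edgeR unadjusted p = 0.0297). Of 12 described targets of the factors, 10 were tested, none was called and none had an unadjusted edgeR p under 0.05, and the median was −0.087. *Gja1*, which encodes connexin 43, was at 585 CPM in both groups. *Actc1*, cardiac actin, had a log2 fold change of 0.60 and *Itga4*, an integrin of the epicardium, one of −1.25, with a difference of −3.48 on date 3. The leukocyte marker *Ptprc*, which encodes CD45, had 96.4, 247 and 596 CPM in wt and 101, 237 and 79.2 CPM in flt3L-/-, and within each group its libraries were in the same order as those of *Itga4*, which had 8.32, 28.6 and 51.5 CPM in wt and 8.01, 20.6 and 4.55 CPM in flt3L-/-. The part of leukocytes in this value was not tested.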

How the data were processed

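RNA of sorted cardiac SP cells was sequenced in 6 libraries (SMART-Seq v4, single reads of 81 bases, unstranded). The authors mapped the reads to mm10 with STAR 2.5.2a, allowing at most 10 hits, after FastQC 0.11.3, and deposited raw counts, the number of reads starting in an exon of each gene (QuasR 1.18.0, Ensembl release 88). Of the 50600 genes, 50376 matched GENCODE vM21, from which coordinates and exon lengths were taken. Reads that map equally well to several places had been placed at random.

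Protein-coding genes with CPM above 1 in at least 2 libraries (13475) were tested with edgeR 4.0.16 (R 4.3.3) after TMM scaling, by a quasi-likelihood fit with sorting date as a covariate and Benjamini-Hochberg adjustment. Totals were 24370913 to 31145519 reads. The common dispersion was 0.0978 with 2 residual degrees of freedom, and differences within a date used a prior count of 2. DESeq2 1.42.0, limma 3.58.1, other scalings, filters and dates left out were the alternatives. Data for this comparison were also simulated (13286 genes), without an effect of date and with the changed genes drawn at random. There 14.1% of genes changed 2-fold, 76.1% of those changed 4-fold and 100% of those changed 16-fold were called. Of those changed 2-fold, 81.2% had an unadjusted edgeR p under 0.05.

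Libraries of both genotypes shared dates per the labels and the study's design, so dates were treated as pairs. Deviations from the group means correlated within dates with r = 0.180, 0.104 and 0.116, and between dates with r from −0.354 to 0.247, so the pairing rests on the labels. No 2 libraries agreed within counting noise. The libraries are separate sorts of pooled mice, so p-values measure the spread between sorts, not between animals. The 10 factors, gene lists and markers were chosen with earlier results of these data known. From each list, the 2 genes of highest CPM and the 2 of lowest p-value could be named, with summed markers, genes within 5 kb of a factor and the 3 genes most correlated with it. *Tbx3*, *Gata5*, *Hand1*, *Mesp1*, *Upk3b*, *Msln*, *Krt8*, *Muc16*, *Gpm6a*, *Myh6*, *Cdh5*, *Vwf* and *Emcn* were named after their values were seen. Promoter sequences are from RefSeq (GRCm38.p6), whose table matched 6 of the 10 factors.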

Additional observations from a re-analysis of the deposited data

How the results depend on the processing

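No factor was called under any alternative. The number of genes called was 0 under each except the DESeq2 Wald test, with 21 (15 lower, 6 higher); it was 0 with each date left out in turn (0 to 0), as was that of factors called. With all libraries kept, the log2 fold changes kept their sign, from −0.93 to −0.76 for *Tbx20*, −0.81 to −0.73 for *Tbx18*, and 0.33 to 0.40 for *Wt1*. With 1 date left out, *Tbx20* ranged from −1.24 to −0.27, *Gata4* from −0.99 to −0.23, *Gata6* from −0.72 to −0.23, *Hand2* from −1.32 to −0.086, *Tcf21* from −1.02 to −0.10, *Tbx18* from −0.81 to −0.73, *Wt1* from 0.24 to 0.56 and *Tbx5* from −0.94 to 0.15, positive without date 1. Without date 2, *Gata4*, *Tbx20*, *Tcf21* and *Wt1* had an unadjusted p under 0.05 and 980 genes did, against 484 with all dates. Without the replicate block, that is, ignoring the pairing by date, 0 genes were called, 262 had an unadjusted p under 0.05 and no factor did. Relative to the summed fibroblast markers, an alternative added after seeing the data, the values of *Gata4* (0.12), *Gata6* (0.28), *Tbx5* (0.37), *Hand2* (0.079) and *Tcf21* (0.22) turned positive. Each of these means over the dates was smaller than its SD. The cause was not tested. With 3 pairs and 14.1% of simulated 2-fold changes called, differences of the sizes fitted here would mostly be missed.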
